A study of Pongo abelii with 6 samples.

Results

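A set of 9 genes that keep stem cells pluripotent or mark that state was followed in induced pluripotent stem cells of the Sumatran orangutan, Pongo abelii. They were NANOG, SOX2, SALL4, ZFP42, PRDM14, DNMT3B, L1TD1, USP44 and JARID2. The choice was by name, but earlier results of these data were known when it was made. All 9 belong to the 15205 genes whose transcripts could be paired with a symbol. Of 29 other genes listed for the pluripotency network only 6 could be paired. The 9 regulators hold 11 of the 58409 transcript rows of the deposited table. USP44 has 3 of these rows and each other gene has 1.

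Pluripotency is held by transcription factors that switch on one another and the genes of the undifferentiated state, chiefly OCT4 (the product of POU5F1), SOX2 and NANOG. Around them act factors that repress lineage genes, enzymes that set DNA methylation, and the Polycomb repressive complex PRC2, which holds developmental genes silent. These roles are known from human and mouse cells. In cells of the primed state, which resembles the embryo after implantation, this network is active while naive markers such as KLF17 are low.

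Total RNA depleted of ribosomal RNA was sequenced from the iPSC lines Dokana and Djasinga, in 3 libraries of each. Both groups shared the same culture: StemMACS iPS-Brew on a Matrigel coating, with 1 uM IWR1, an inhibitor of Wnt signalling, and 0.5 uM CHIR, a name used for GSK3 inhibitors, and passaging in clumps with Versene. The libraries of a line are sequential passages, which the design text calls technical replicates and the titles call biological ones, so SDs and p-values describe the spread between passages. Each group is a single line, and donor, line and culture cannot be told apart. Some labels conflict: a treatment entry reads differentiated and a genotype entry mentions small RNA, whereas cell type and titles give undifferentiated iPSC and total RNA.

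Values are TPM, a length-corrected share of the transcripts of a library. Levels can thus be set side by side between genes, as far as the paired rows cover each gene. TPM keeps no read depth, and the depth is unknown. In each library 11.9% to 17.6% of the TPM lay in rows paired with a symbol. A single assembled transcript without a symbol took 16.9% to 28.2% of the TPM in Dokana and 26.7% to 42.4% in Djasinga, which lowers all other values of a library alike. Differences are therefore also given after median-ratio scaling, which sets the typical gene equal between libraries. Djasinga replicate 3 stood apart: after this scaling its score on the first principal component was 40.2, against -17.2 to -0.355 in the other 5 libraries, and it had 10369 detected genes against 11075 to 11232.

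The labelled cell type was checked against markers of other states. All 7 pluripotency markers that could be paired are themselves among the 9 regulators, so they are no separate check. Markers of the primed state, 4 of 7 paired, summed to 219 to 244 TPM in Dokana and 153 to 215 TPM in Djasinga, mainly CD24 and THY1. Naive markers, 8 of 10 paired, summed to 1.95 to 3.98 TPM over all libraries, and DPPA5 was listed at 0. Trophoblast and amnion markers (5 of 6 paired) reached at most 0.181 TPM, endoderm markers (5 of 6) 1.42 TPM, germ cell markers (5 of 6) 2.13 TPM and mesoderm markers (5 of 6) 2.25 TPM. Neuroectoderm markers (4 of 6) summed to 4.39 to 7.04 TPM, mainly POU3F1, with PAX6 near 0. Fibroblast markers (5 of 8) summed to 8.35 to 9.72 TPM in Dokana and 5.74 to 7.93 TPM in Djasinga, mainly TWIST2 and COL1A2 with COL3A1 near 0; their part in the line differences was not tested. POU5F1 and TDGF1 had no row paired with a symbol and were not analysed here. Rows without a symbol may also hold RNA of the paired markers, so a low sum need not mean an absent transcript.

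All 9 regulators were present in all 6 libraries, and their mean levels are given in tiers. The sums may be partial, since DNMT3B rests on 1 row where RefSeq lists 17 transcripts. JARID2 rests on 1 of 11, ZFP42 on 1 of 6, L1TD1 on 1 of 5, SALL4 on 1 of 3 and USP44 on 3 of 16. NANOG, SOX2 and PRDM14 have only 1 listed. The effect on the order of the genes was not tested. NANOG, DNMT3B and USP44 had 6-library means of 64.1, 63.0 and 57.1 TPM, SOX2 and SALL4 of 44.3 and 41.1 TPM, JARID2 and ZFP42 of 23.4 and 20 TPM, and PRDM14 and L1TD1 of 10.8 and 7.69 TPM. SALL4 was above JARID2 in 6 of 6 libraries with no overlap of their ranges. ZFP42 was above PRDM14, and PRDM14 above L1TD1, in 6 of 6 libraries, though the ranges over libraries overlapped. Within the upper tiers neighbours were not told apart: NANOG exceeded DNMT3B in 2 of 6 libraries, DNMT3B exceeded USP44 in 4, USP44 exceeded SOX2 in 5 and SOX2 exceeded SALL4 in 3. JARID2 exceeded ZFP42 in 4 of 6. The upper tiers mixed within single libraries: in Djasinga replicate 2 NANOG was below SOX2 and SALL4, and in Djasinga replicate 1 DNMT3B was below SALL4.

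**Figure D1:**
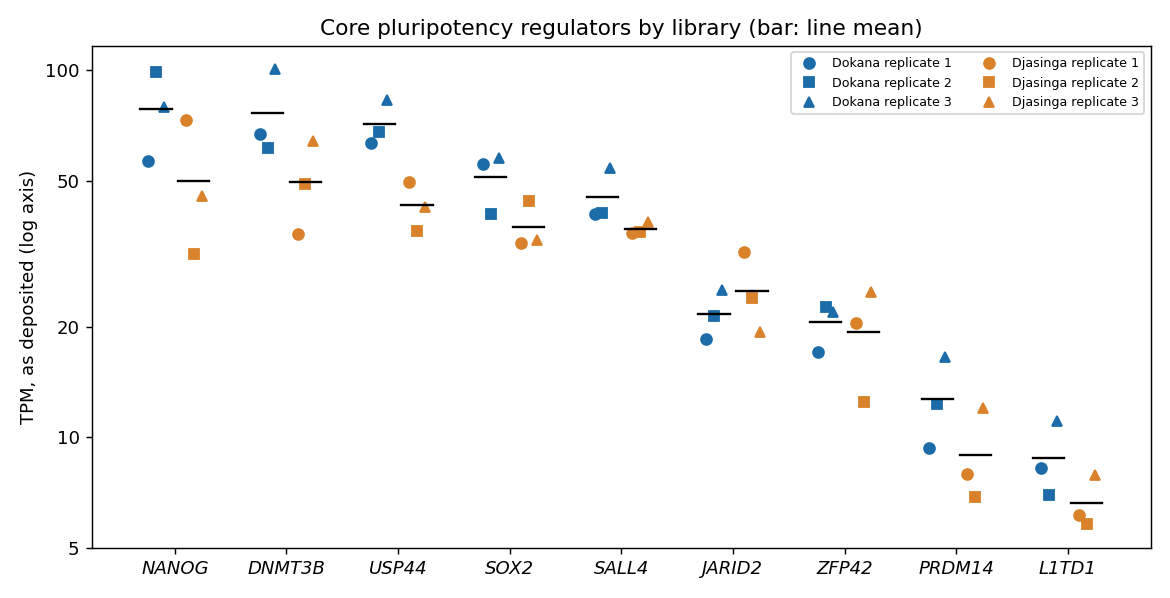
TPM of each regulator in each library on a log axis, genes ordered by their 6-library mean; blue marks are Dokana, orange marks Djasinga, the shape gives the replicate and the bar the mean of a line. The lines overlap for every gene other than SALL4 and USP44, and the 6-library means run from NANOG at 64.1 TPM to L1TD1 at 7.69 TPM.

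NANOG, a homeodomain transcription factor, was the most variable of the 9 across libraries. Dokana replicates 1 to 3 had 56.7, 98.8 and 79.2 TPM, and Djasinga replicates 1 to 3 had 73.0, 31.6 and 45.3 TPM, the order used for all genes. The highest library is of Dokana and the lowest of Djasinga, but Djasinga replicate 1 lies above Dokana replicate 1, so the lines overlap. The highest value was 3.13 times the lowest, against at most 2.81 times for the other 8 genes. NANOG ranked 261 of 12314 named genes detected in Dokana and 340 of 12155 in Djasinga, at percentiles 97.9 and 97.2. Its line difference on the log2(TPM + 1) scale, Djasinga minus Dokana, was -0.68 (95% interval -1.49 to 0.12, limma adjusted p 0.355), and -0.35 after median-ratio scaling (95% interval -1.21 to 0.51, limma adjusted p 0.931). Leaving out single libraries moved the deposited value between -0.99, without Djasinga replicate 1, and -0.40, without Djasinga replicate 2.

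SOX2, an HMG-box factor that binds DNA together with OCT4, had 55.7, 40.6 and 57.5 TPM in the Dokana libraries against 33.8, 44.0 and 34.4 TPM in those of Djasinga. Dokana replicate 2 lies below Djasinga replicate 2, so the lines overlap in this pair. The means were 51.3 ± 9.30 and 37.4 ± 5.69 TPM (SD, n = 3), at percentiles 96.6 and 96.2, and the difference was -0.44 (95% interval -0.93 to 0.05, limma adjusted p 0.346). Median-ratio scaling left -0.10 of it (95% interval -0.50 to 0.29, limma adjusted p 0.957).

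SALL4, a zinc finger protein that recruits the NuRD deacetylase complex, varied least. It had 40.6, 40.9 and 54.1 TPM in the Dokana libraries against 36.1, 36.2 and 38.5 TPM in those of Djasinga. All Djasinga libraries lie below all Dokana libraries as deposited. After median-ratio scaling the ranges overlap, with values of 37.2 to 41.5 in Dokana and 38.1 to 45.4 in Djasinga, and the highest library is then only 1.22 times the lowest. The difference of -0.27 as deposited (limma adjusted p 0.415) became 0.06 after scaling (limma adjusted p 0.960), and -0.14 as deposited without Dokana replicate 3.

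ZFP42, also named REX1, is a zinc finger protein related to YY1 and a long-used marker of undifferentiated cells. It had 17.1, 22.7 and 22.0 TPM in the Dokana libraries against 20.5, 12.5 and 24.9 TPM in those of Djasinga. Both the highest and the lowest library are of Djasinga. The difference was -0.13 (95% interval -0.78 to 0.51, limma adjusted p 0.768). Median-ratio scaling turned it to 0.19 (limma adjusted p 0.955), and leaving out single libraries moved the deposited value between -0.33, without Djasinga replicate 3, and 0.14, without Djasinga replicate 2.

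PRDM14, a PR-domain factor of pluripotent and early germ cells, had 9.32, 12.3 and 16.5 TPM in the Dokana libraries against 7.95, 6.85 and 12.0 TPM in those of Djasinga. In each line replicate 3 is the highest library, and the lines overlap. Its percentile was 86.2 in Dokana and 84.8 in Djasinga, and the difference was -0.46 (95% interval -1.12 to 0.19, limma adjusted p 0.392). It was -0.15 after median-ratio scaling (limma adjusted p 0.960) and -0.27 as deposited without Dokana replicate 3 (limma adjusted p 0.743). L1TD1, an RNA-binding protein derived from a LINE-1 open reading frame, was the lowest of the 9. It had 8.25, 6.96 and 11.1 TPM in the Dokana libraries against 6.14, 5.79 and 7.87 TPM in those of Djasinga, at percentiles 81.4 and 80.7. Replicate 3 is again the highest library of each line, and the difference was -0.35 (95% interval -0.87 to 0.17, limma adjusted p 0.407). For L1TD1, too, it was smaller after median-ratio scaling, at -0.05 (limma adjusted p 0.982), and without Dokana replicate 3, at -0.19 (limma adjusted p 0.758).

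The chromatin regulators among the 9 held the 2 ends of the line differences. DNMT3B, which places new methyl groups on DNA, had 67.2, 61.4 and 101 TPM in the Dokana libraries against 35.8, 49.1 and 64.1 TPM in those of Djasinga. Replicate 3 is the highest library of each line, and Djasinga replicate 3 lies above Dokana replicate 2. In each same-numbered pair Djasinga is the lower, as it also is for SALL4, PRDM14, L1TD1 and USP44. The difference was -0.62 (95% interval -1.28 to 0.04, limma adjusted p 0.339). With the replicate number as a block the interval was -1.12 to -0.12 (unadjusted p 0.0244, limma adjusted p 0.439). That block lowered the unadjusted p of PRDM14 and L1TD1 as well. It raised that of the remaining regulators, for USP44 from 0.0068 to 0.0156 (limma). Median-ratio scaling gave -0.28 (95% interval -0.92 to 0.35, limma adjusted p 0.914). Single libraries moved the deposited value both ways, to -0.82 without Djasinga replicate 3, -0.41 without Djasinga replicate 1 and -0.40 without Dokana replicate 3.

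USP44, a deubiquitinase that acts on histone H2B and, in mitosis, on the spindle checkpoint, had the lowest unadjusted p of the 9. Its summed level was 63.5, 67.9 and 82.8 TPM in the Dokana libraries against 49.7, 36.4 and 42.4 TPM in Djasinga, and the lines do not overlap. The means were 71.4 ± 10.1 and 42.9 ± 6.68 TPM (SD, n = 3), the difference -0.73 (SE 0.19, 95% interval -1.18 to -0.27) with an unadjusted p of 0.0068 and a limma adjusted p of 0.283 over all genes. Relative to the median tested gene it was -0.43, and 7.39% of tested genes had a more negative difference. After median-ratio scaling the lines still did not overlap, at 58.2 to 69.0 in Dokana and 41.7 to 52.4 in Djasinga. The difference was then -0.39 (95% interval -0.71 to -0.07, unadjusted p 0.0245, limma adjusted p 0.553). Leaving out the most abundant transcript and rescaling the rest gave -0.45, and leaving out Djasinga replicate 3 gave -0.72 (limma adjusted p 0.775 and 0.480).

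JARID2, which brings PRC2 to its targets and stimulates it, was the only one of the 9 with a positive difference as deposited. It had 18.5, 21.4 and 25.2 TPM in the Dokana libraries against 32.0, 24.0 and 19.4 TPM in those of Djasinga. The lines overlap as deposited, since Djasinga replicate 3 lies below Dokana replicates 2 and 3. The difference was 0.18 (95% interval -0.36 to 0.73, limma adjusted p 0.629). After median-ratio scaling the lines no longer overlapped, at 16.9 to 21.7 in Dokana and 22.9 to 33.7 in Djasinga, and the difference was 0.51 (95% interval 0.09 to 0.94, unadjusted p 0.0259, limma adjusted p 0.553). The deposited value moved with several single libraries, to 0.00 without Djasinga replicate 1, 0.08 without Dokana replicate 1, 0.29 without Dokana replicate 3 and 0.35 without Djasinga replicate 3 (limma adjusted p 0.509 to 0.997).

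Of the 9 regulators, 0 passed the threshold between the lines (limma on log2(TPM + 1), adjusted p under 0.05 over 6255 genes), and 1, USP44, had an unadjusted p under 0.05. Over all genes 22 were called, or 0.352%, and 924 of 6255 had an unadjusted p under 0.05, so neither count as deposited sets the 9 apart. After median-ratio scaling 2 of the 9 had an unadjusted p under 0.05, USP44 and JARID2 (limma 0.0245 and 0.0259), against 470 of 6228 genes. None of the 9 was called then. With the replicate number as a block 5 genes were called and still 0 of the 9. Of the 9 differences 8 were negative with a median of -0.44, against 86.0% of all tested genes and a median of -0.29. After median-ratio scaling 6 were negative with a median of -0.10, against 53.9% and -0.02. As deposited, 2 of the 9 (SALL4 and USP44) had lines that did not overlap, against 25.7% of tested genes, and after scaling 2 (USP44 and JARID2), against 13.1%. A p above the threshold does not show equal levels: the intervals reach -1.49 for NANOG. In bulk RNA, fewer cells with a transcript and less of it per cell cannot be told apart.

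**Figure D2:**
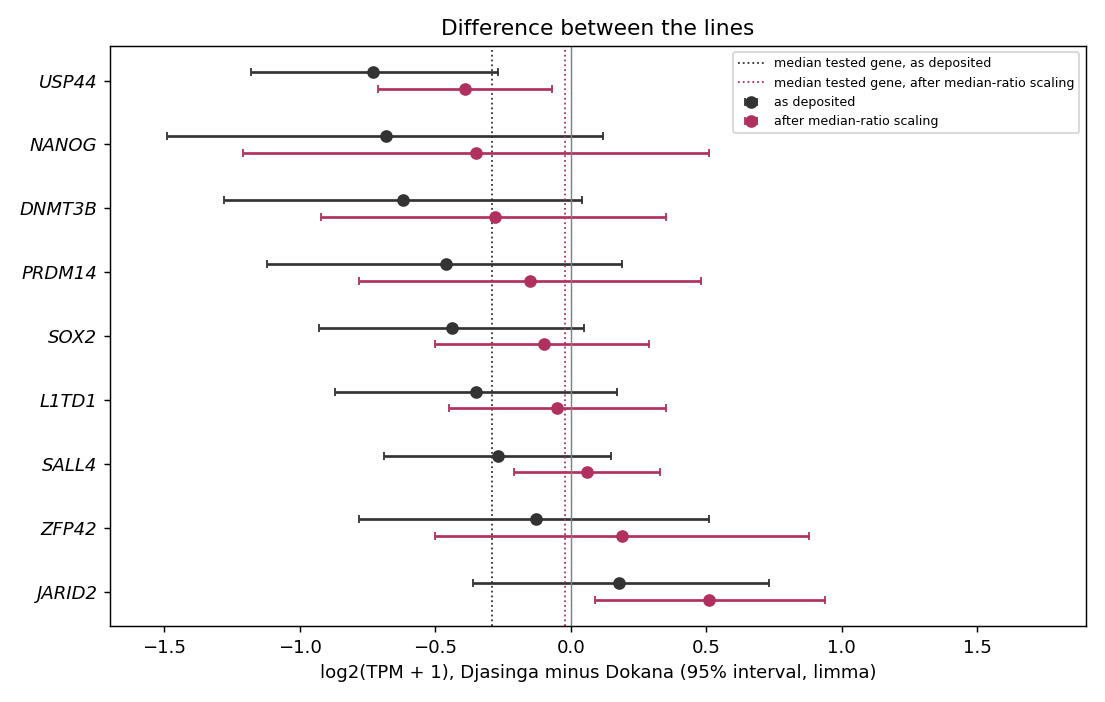
Difference of each regulator in log2(TPM + 1), Djasinga minus Dokana, with limma's 95% interval; black is as deposited, red after median-ratio scaling, and dotted lines mark the median tested gene (-0.29 and -0.02). USP44 at -0.73 and JARID2 at 0.18 are the ends of the order, and both shift upward with the scaling as all genes do.

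USP44 is the only regulator with several rows, and its rows differed in size of difference. The row XM_024257424.1 had 20.7, 27.4 and 34.2 TPM in the Dokana libraries against 14.8, 8.28 and 12.9 TPM in those of Djasinga, with no overlap. Its difference was -1.13 (SE 0.28, 95% interval -1.78 to -0.49, limma adjusted p 0.146 over 22561 transcripts). The row XM_024257425.1 had 32.8, 30.3 and 38.7 TPM in the Dokana libraries against 22.9, 21.4 and 22.8 TPM in those of Djasinga, also with no overlap, and differed by -0.57 (95% interval -1.01 to -0.13, limma adjusted p 0.265). After median-ratio scaling the differences of these rows were -0.82 (limma adjusted p 0.328) and -0.25 (unadjusted p 0.0759, limma adjusted p 0.637). Lines without overlap are common as deposited, at 25.7% of tested genes. The share among transcripts was not determined. The row XM_024257426.1 was level in Dokana, at 10.1, 10.3 and 9.91 TPM, and stood at 12.0, 6.69 and 6.73 TPM in Djasinga, on both sides of it. Of the 11 rows of the 9 regulators 0 were called (limma) and 2 had an unadjusted p under 0.05, both of USP44, against 232 called transcripts in all, or 1.03%, and 3272 with an unadjusted p under 0.05. After scaling the 2 rows with an unadjusted p under 0.05 were XM_024257424.1 and the row of JARID2.

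A row's share of the USP44 sum does not depend on how a library is scaled. XM_024257424.1 made up 32.5%, 40.3% and 41.2% of the sum in Dokana and 29.8%, 22.8% and 30.4% in Djasinga. Its share was lower in all 3 Djasinga libraries than in any Dokana library, by 10.4 percentage points on average (two-sided exact permutation test p 0.1, the smallest that 3 against 3 libraries allow). XM_024257426.1 had shares of 15.8%, 15.2% and 12.0% in Dokana and 24.1%, 18.4% and 15.9% in Djasinga, higher in Djasinga by 5.13 points (exact permutation p 0.1). The lines are apart here only by 15.9% against 15.8%, and without Djasinga replicate 1 the difference was 2.80 points. XM_024257425.1 had the largest share in all 6 libraries, 44.5% to 58.8%, and its lines overlap (exact permutation p 0.3). The shares were tested after the rows had been seen, and no p under 0.05 can be reached in this design. Rows of 1 gene share reads that the quantification divides among them.

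**Figure D3:**
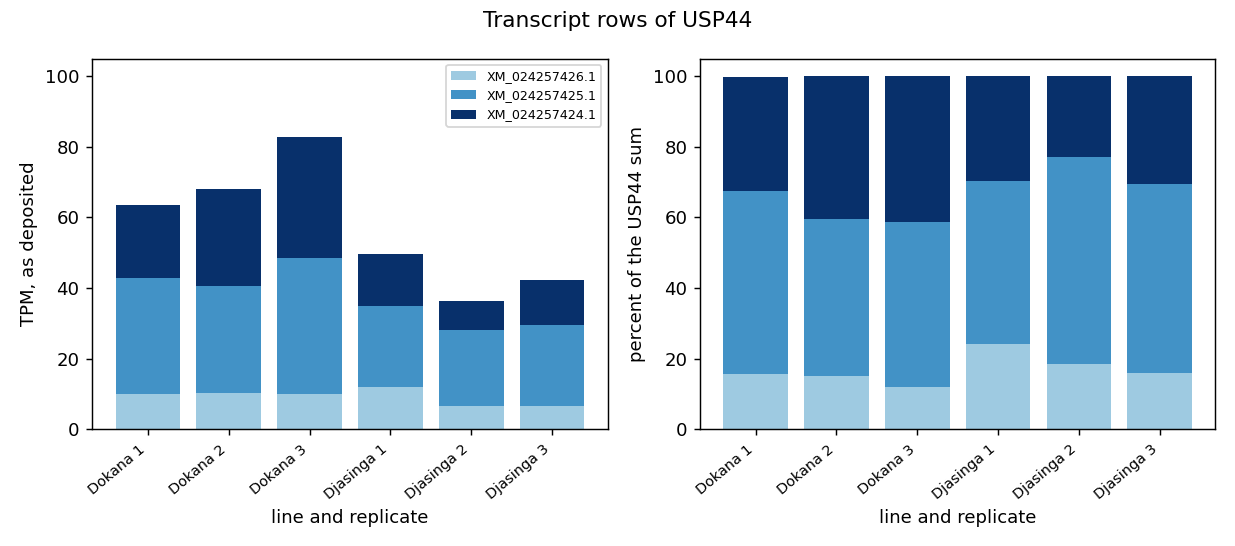
Stacked bars of the 3 USP44 transcript rows in each library, left in TPM as deposited and right as percent of the USP44 sum. The dark segment, XM_024257424.1, takes 32.5% to 41.2% in the Dokana libraries and 22.8% to 30.4% in those of Djasinga.

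Ratios between 2 regulators of the same library are also free of its scaling. USP44 was 3.44, 3.17 and 3.29 times JARID2 in Dokana and 1.55, 1.52 and 2.19 times JARID2 in Djasinga, and these values do not overlap. NANOG was 3.07, 4.62 and 3.15 times JARID2 in Dokana and 2.28, 1.32 and 2.34 times in Djasinga, and SOX2 was 1.9 to 3.01 times JARID2 in Dokana and 1.06 to 1.83 times in Djasinga. These ratios, too, are separate between the lines, SOX2 by a narrow margin. The other 5 genes overlap in their ratio to JARID2, and for each of them Djasinga replicate 3 lies within or above the Dokana range. Of all 36 pairs of regulators 5 had ratios without overlap between the lines, the other two being SALL4 to USP44 (0.602 to 0.653 in Dokana, 0.726 to 0.996 in Djasinga) and ZFP42 to USP44 (0.266 to 0.334 and 0.343 to 0.587). All 5 pairs hold USP44 or JARID2. The ratios were singled out after their values were seen and were not tested. How many of all gene pairs have such ratios was not determined, so the count does not set these pairs apart. Among single genes, 13.1% had lines without overlap after median-ratio scaling. NANOG to SOX2, by contrast, ranged from 1.02 to 2.44 within Dokana and from 0.718 to 2.16 within Djasinga, so passages of 1 line spanned almost the whole range.

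**Figure D4:**
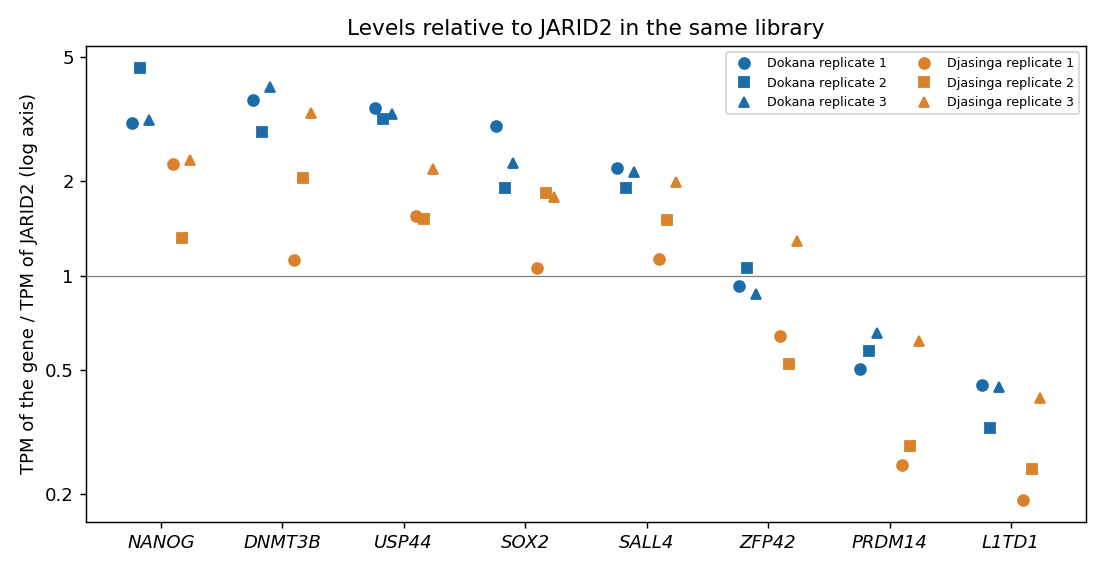
TPM of each of the other 8 regulators divided by the TPM of JARID2 in the same library, on a log axis; colours give the line and shapes the replicate. USP44 has the widest gap of the 3 genes whose lines are separate, 3.17 to 3.44 in Dokana and 1.52 to 2.19 in Djasinga, while Djasinga replicate 3 sits among or above the Dokana libraries for ZFP42 and PRDM14.

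The pattern of each gene over the 6 libraries was described by its log2(TPM + 1) minus its own 6-library mean. As deposited, 0 of 9 regulators were below their mean in Dokana replicate 3 and 7 of 9 were below it in Djasinga replicate 2; the median tested gene was at 0.36 and -0.18 in these libraries. After median-ratio scaling the numbers below the mean ran from 3 to 6 of 9 per library. The deviations that remained differed by gene. NANOG then deviated most, by 0.73 in Dokana replicate 2 and -0.71 in Djasinga replicate 2. DNMT3B was at -0.66 in Djasinga replicate 1, where JARID2 was at 0.53. In Djasinga replicate 3, the library that stood apart, ZFP42, PRDM14, DNMT3B and L1TD1 were at 0.57, 0.41, 0.33 and 0.28, and NANOG, USP44, SOX2 and JARID2 were at -0.16, -0.13, -0.09 and -0.01.

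**Figure D5:**
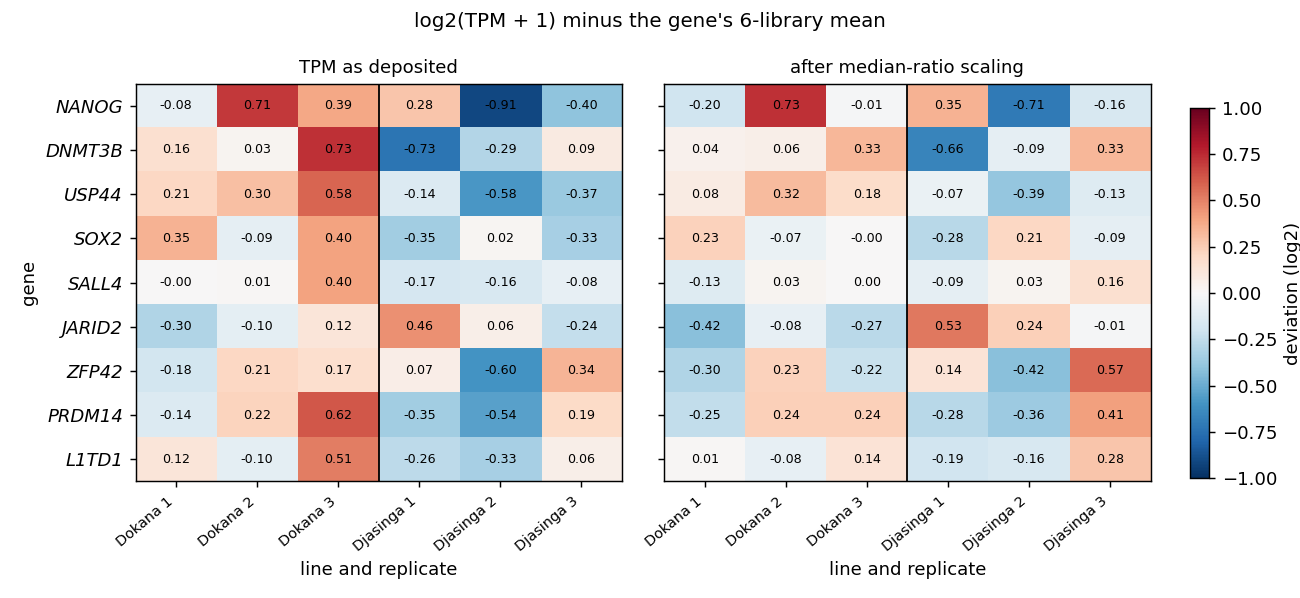
Each cell gives a regulator's log2(TPM + 1) in a library minus its 6-library mean, left as deposited and right after median-ratio scaling; red is above and blue below the mean. The column of Dokana replicate 3 has no regulator below its mean as deposited and 4 below it after scaling, while NANOG goes from 0.71 to 0.73 in Dokana replicate 2 and from -0.91 to -0.71 in Djasinga replicate 2.

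Patterns were compared in pairs by the root mean square difference of these deviations, in log2 units over 6 libraries of 2 lines, which are not independent points. The most alike of the 36 pairs of regulators were SALL4 and L1TD1 (0.12), PRDM14 and L1TD1 (0.20) and SOX2 and SALL4 (0.21), and the least alike were NANOG and DNMT3B (0.62) and DNMT3B and JARID2 (0.61). Median-ratio scaling left these values within 0.01. SALL4 and L1TD1 were also among those that moved least after scaling, which makes any such pair alike. Low differences are common: of 2402 named genes with a mean of at least 5 TPM, 708 were within 0.2 of SOX2, 316 within 0.2 of USP44 and 90 within 0.2 of DNMT3B. Within 0.2 of NANOG there were 3.

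Those 3 genes were FAM169A (0.172), THY1 (0.176), a surface protein of primed pluripotent cells, and KLF3 (0.199), a Krueppel-like transcription factor. THY1 had 52.4, 73.8 and 57.6 TPM in the Dokana libraries against 60.0, 30.7 and 31.5 TPM in those of Djasinga, high and low in the same libraries as NANOG. The genes nearest to SOX2 were DLG3 (0.037), PTTG1 (0.051), which encodes securin, and LIG1 (0.068), a DNA ligase of replication. Nearest to DNMT3B were CBS (0.104), ALG6 (0.117) and HMGB3 (0.123), and nearest to USP44 were HSCB (0.068), GGPS1 (0.085) and BCAT1 (0.099). BCAT1, an enzyme of branched-chain amino acid metabolism, had 192, 169 and 235 TPM in the Dokana libraries against 133, 111 and 119 TPM in those of Djasinga. After median-ratio scaling the 3 nearest genes were the same for NANOG, SOX2 and DNMT3B, and for USP44 SNX19 took the place of BCAT1.

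Partners of the regulators were read from lists of named genes, and 0 of their tested members were called between the lines (limma adjusted p under 0.05, any direction). Over all genes 22 of 6255 were called, or 0.352%, so a count of 0 does not set the partners apart. Of 29 other genes of the pluripotency network 6 were paired with a symbol and 4 tested. Of these, 0 had an unadjusted p under 0.05, against 924 of 6255 over all genes. The highest were MYCN, a growth-promoting transcription factor, at 49.8 ± 9.18 TPM in the Dokana libraries against 40.3 ± 11 TPM in those of Djasinga (mean ± SD of 3, in this order below), and LIN28B, which blocks let-7 maturation, at 20.8 ± 4.84 and 14.9 ± 1.06 TPM. Among 4 tested partners and kin of SOX2 the highest were SOX4 (101 ± 11.8 and 69.9 ± 24.1 TPM) and POU3F1 (4.92 ± 1.27 and 4.27 ± 1.68 TPM). SOX1, of the same subfamily as SOX2 and named after its value was seen, stood at 1.11 ± 0.187 and 0.939 ± 0.784 TPM.

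For DNMT3B, 4 of 11 listed genes of DNA methylation were tested, all with a negative difference (86.0% of all genes had one). Of these, 1 had an unadjusted p under 0.05, as had 924 of all 6255 genes. The median of the list was -0.29 as deposited and 0.00 after median-ratio scaling. After scaling 0 of the 4 had an unadjusted p under 0.05, against 470 of 6228 genes. The highest were TET1, which oxidises methylated cytosine, at 36.2 ± 10.2 and 21.7 ± 2.52 TPM (difference -0.68, unadjusted p 0.0246, limma adjusted p 0.326; -0.35 and unadjusted p 0.0687 after scaling), and UHRF1, the cofactor of maintenance methylation, at 28.2 ± 7.97 and 24.4 ± 10.3 TPM. DNMT3A, the other de novo enzyme, was named after its value was seen: it stood at 2.81 ± 0.576 and 2.24 ± 0.0621 TPM, far under DNMT3B, and the cofactor DNMT3L at 0.130 ± 0.0674 and 0.240 ± 0.140 TPM.

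For JARID2, 7 of 12 listed PRC2 genes were tested, with a median difference of -0.21 as deposited and 0.09 after median-ratio scaling. The highest were MTF2, a Polycomb-like subunit, at 32.3 ± 4.31 and 23.2 ± 5.21 TPM (limma adjusted p 0.337) and EZH2, the methyltransferase, at 9.66 ± 4.65 and 8.37 ± 4.55 TPM. AEBP2, which joins the same form of the complex as JARID2, was at 8.40 ± 0.474 and 6 ± 2.02 TPM. SUZ12, a core subunit, was listed at 0 in all 6 libraries; both were named after their values were seen. Rows without a symbol may hold RNA of these genes, so a low or zero sum need not mean an absent transcript, and the sums of the 9 regulators may be partial too.

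For SALL4, 9 of 13 NuRD genes were tested, 8 with a negative difference against 86.0% of all genes. Their median was -0.25 as deposited and 0.05 after median-ratio scaling. The highest were HDAC1 (41.6 ± 6.19 and 33.6 ± 1.64 TPM) and MTA1 (36.6 ± 4.31 and 30.2 ± 6.15 TPM). Of these, 1 had an unadjusted p under 0.05, as had 924 of all 6255 genes. It was HDAC2, named after its value was seen, at 6.23 ± 1.54 and 3.22 ± 0.323 TPM (limma adjusted p 0.283). After median-ratio scaling HDAC2 was still the only 1 of the list, at -0.48 (limma unadjusted p 0.00722, adjusted p 0.391). For USP44, 4 of 11 genes of its processes were tested, with a median of -0.55 as deposited and -0.23 after median-ratio scaling. The medians of all tested genes were -0.29 and -0.02. The highest were CDC20, an activator of the anaphase-promoting complex, at 49.4 ± 12.5 and 37.3 ± 11.5 TPM and BUB1, a checkpoint kinase, at 33.4 ± 11 and 22.2 ± 7.10 TPM. The other 2, TTK and RNF20, named after their values were seen, had an unadjusted p under 0.05 and limma adjusted p of 0.326 and 0.336. After median-ratio scaling 0 of the 4 had an unadjusted p under 0.05. Over all genes 924 of 6255 had one as deposited and 470 of 6228 after scaling. None of the listed partners of PRDM14 or kin of ZFP42 had a row paired with a symbol.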

How the data were processed

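The authors deposited TPM per transcript for 6 libraries, per the file headers. Other columns hold the authors' flags (another kind of value, 0 or 1, per the file headers) and were not used. Trimmomatic 0.39, FastQC 0.11.9, STAR and StringTie are named in the submitters' processing notes, without roles; no quantifier, genome build or annotation is given in the sources used here. For names alone, transcript accessions, versions dropped, were looked up in RefSeq (NHGRI_mPonAbe1-v2.0), which paired 22112 of 43705 RefSeq rows (50.6%) with a symbol, and TPM was summed per symbol. No version matched for the 9 regulators.

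The lines were compared with limma-trend on log2(TPM + 1), Djasinga minus Dokana, for genes or transcripts reaching 1 TPM in 3 or more libraries, with p-values adjusted over all of them by Benjamini-Hochberg and a threshold of 0.05; such fold changes understate the change of low genes. The same fit was run on simulated data with independent noise and no shift between libraries, so that run does not bear on the scaling. Alternatives were a replicate block, median-ratio and quantile scaling, other pseudocounts and filters, and leaving out each library; those without the most abundant transcript, the block with median-ratio scaling and the USP44 shares were added after seeing the data. The main fits left the replicate number out and were unpaired. Only the fits with a replicate block treated libraries of the same number as pairs, since a batch tag carries that number. Deviations of same-numbered libraries correlated across genes by -0.0930, -0.130 and 0.152. No 2 libraries of a line were alike (0 or 1 genes with the same value above 0). The members and lists were chosen with earlier results of these data known. Named genes are the 9 members, the 2 highest and any called gene of each list, and the 3 nearest patterns of NANOG, SOX2, DNMT3B and USP44 among genes of at least 5 TPM whose symbol is not a LOC number; others are marked. The fits ran in limma 3.58.1 under R 4.3.3, and the rest in Python 3.11.15 (numpy 2.4.6, pandas 2.3.3, scipy 1.17.1, matplotlib 3.10.9).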

Additional observations from a re-analysis of the deposited data

How the results depend on the processing

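In 16 alternative fits per gene, 15 of which could include the regulators' transcript rows, 0 of the regulators or of the USP44 rows were called (limma). The smallest adjusted p was 0.126 for USP44, whose difference ran from -0.84 to -0.39, and 0.109 for its row XM_024257424.1, from -1.32 to -0.81. The signs of SALL4 and ZFP42 turned with the scaling: median-ratio scaling gave 0.06 and 0.19, quantile normalization 0.07 and 0.21, leaving out the most abundant transcript 0.00 and 0.14, and the replicate block with median-ratio scaling 0.06 and 0.19. The row XM_024257426.1 turned to 0.02, 0.04 and 0.02 under median-ratio scaling, quantile normalization and the block with median-ratio scaling. Leaving out single libraries moved ZFP42 between -0.33 and 0.14, the latter without Djasinga replicate 2. The cause was not tested.

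The number of genes called in all was 22. It was 5 with the replicate block, 1 with the block and median-ratio scaling, 10 with a pseudocount of 0.1, 9 with at least 5 TPM in 3 libraries, 48 among protein-coding genes alone and 4 to 22 with single libraries left out. Leaving out Dokana replicates 1, 2 or 3 gave 8, 6 and 7, and leaving out Djasinga replicates 1 or 3 gave 13 and 4. Requiring the accession version gave 0 (limma, 135 at an unadjusted p under 0.05) and left no regulator to test. The replicate block changed no call of the 9. Of 18 line means, 1 moved by more than its SD with median-ratio scaling, SALL4 in Djasinga, from 36.9 to 41.7. The depth behind the TPM values is unknown, and no floor can be given.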
